A study of Rattus norvegicus with 2 samples.

Results

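Of the superoxide dismutase and glutathione peroxidase genes of the rat, 4 were found in the deposited table of 2325 genes: Sod2, Sod3, Gpx1 and Gpx3, each chosen by its symbol and each held in 1 row. The dismutases were higher and the peroxidases lower in rat bone marrow mesenchymal stem cells (bmMSCs) that had been transfected with Pdx1 and Ngn3 and collected 10 days later. Sod3 was 3.93-fold and Sod2 2.88-fold higher, while Gpx3 was 3.07-fold and Gpx1 2.87-fold lower. The summed level of the listed dismutases was 6.99 times that of the listed peroxidases in the transfected library and 0.617 times in the untransfected library.

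The study sequenced messenger RNA from 1 library of bmMSCs transfected with Pdx1 and Ngn3, transcription factors of pancreatic and endocrine development, and from 1 library of untransfected bmMSCs, its negative control. Both libraries came from bone marrow of Sprague-Dawley rats at passages 3 to 5. The control did not go through a transfection, so the effect of the procedure and that of the introduced genes cannot be told apart, and the vector, the number of animals and the control's time in culture are not stated in these sources. With 1 library per condition there is no measure of the spread between cultures, no test was possible, and every interval below covers counting error only. In bulk RNA such as this, fewer cells of a type and less RNA per cell cannot be told apart.

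Superoxide dismutases turn superoxide, a by-product of respiration and a product of oxidases, into oxygen and hydrogen peroxide. Glutathione peroxidases then reduce hydrogen peroxide and lipid peroxides with glutathione. The enzymes differ in place: Sod2 is the manganese enzyme of the mitochondrial matrix, Sod3 the secreted copper and zinc enzyme that binds to the cell surface and matrix, Gpx1 the selenium-containing peroxidase of cytosol and mitochondria, and Gpx3 the secreted selenium-containing peroxidase of plasma. Pancreatic beta cells of rodents are known for low glutathione peroxidase and catalase.

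The implied depth was 7415094 reads in the transfected and 7800831 reads in the untransfected library. Pdx1 served as a check of the labels and had 565 reads in the transfected library against 0 in the untransfected one. The deposited table is a selection of genes that the authors' test had called changed by at least 2-fold, so a gene entered it only if it differed. A change was called here when the ratio of scaled reads was at least 2 in either direction and the exact 95% interval left out 1. By that rule 1476 genes were higher (63.5% of those listed) and 849 lower (36.5%). The 2 higher and 2 lower members stand beside that background, and nothing about the members can be read from their having passed. Sod1 and 6 other glutathione peroxidase genes were looked up by symbol and are not among the listed genes, so no value is given for them. Among stromal markers, 6 of 14 entries were listed, among them Thy1 (CD90), which was lower, and Pdgfra, which was higher. Nt5e, Eng and Cd44 were not among the listed genes.

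Sod3 had the highest level of the 4 genes in the transfected library. It had 13527 reads there against 3621 reads in the untransfected library. As RPKM, reads scaled by gene length and by library total, this came to 1055 (interval 1037 to 1073) in transfected and 268 (260 to 277) in untransfected cells, a ratio of 3.93 (3.79 to 4.08). Among all listed genes its level ranked 14 in the transfected and 57 in the untransfected library, so this secreted dismutase was among the most abundant listed transcripts.

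Sod2 had 2467 reads in the transfected and 900 reads in the untransfected library. Its level was 159 RPKM (153 to 166) in transfected against 55.2 RPKM (51.7 to 58.9) in untransfected cells, with a ratio of 2.88 (2.67 to 3.12). Neither dismutase moved by an unusual amount for this table: by size of fold Sod3 was number 629 and Sod2 number 901 of the 1476 higher genes, whose median was 3.41-fold. The increase of Sod3 exceeded that of Sod2 by a factor of 1.36 (1.25 to 1.48), a difference larger than counting error.

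Gpx3 had 1450 reads in the transfected and 4687 reads in the untransfected library. Its level was 129 RPKM (123 to 136) in transfected and 397 RPKM (386 to 409) in untransfected cells, which is 3.07-fold lower (2.90 to 3.26). In the untransfected library it was the most abundant of the 4 genes, ranking 37 among all listed genes, against rank 120 in the transfected library.

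Gpx1 had 314 reads in transfected cells and 947 reads in untransfected cells. Its level was 44.3 RPKM (39.5 to 49.5) in transfected and 127 RPKM (119 to 135) in untransfected cells, 2.87-fold lower (2.52 to 3.27). Gpx3 and Gpx1 ranked 432 and 475 by fold among the 849 lower genes, whose median was 3.10-fold, so both lay close to the middle. The decrease of Gpx3 relative to that of Gpx1 was 1.07 (0.931 to 1.23), which counting error does not separate from 1. The row of Gpx1 rests on a cDNA clone read whose best protein match in the deposited annotation is the dog enzyme, and that of Gpx3 on a cDNA matched best to the mouse enzyme. The treatment of reads shared with related sequences is not given, so these peroxidase counts carry that uncertainty.

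**Figure D1:**
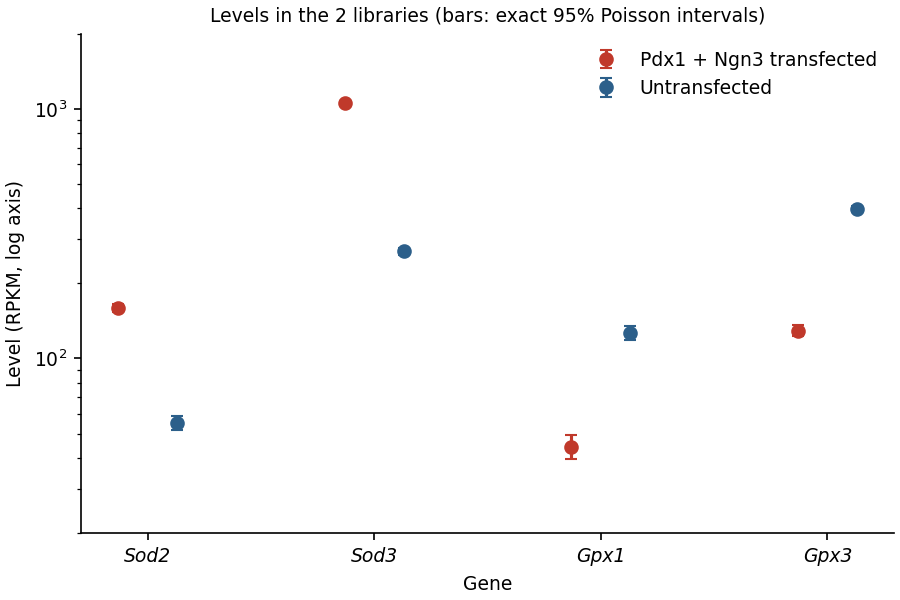
Level of each gene on a log axis (RPKM) in the transfected (left point of each pair) and the untransfected library (right point), with exact Poisson intervals as bars. Sod2 and Sod3 are higher and Gpx1 and Gpx3 lower in the transfected library. Every listed gene was selected for a change of at least 2-fold, so nothing about these genes can be read from the gaps between their bars.

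The order of the 4 levels differed between the libraries. In transfected cells it ran from Sod3 through Sod2 and Gpx3 to Gpx1, and the closest neighbours were Sod2 and Gpx3, with a ratio of RPKM levels of 1.23 (1.15 to 1.31). In untransfected cells it ran from Gpx3 through Sod3 and Gpx1 to Sod2, and the closest neighbours were Gpx3 and Sod3, at 1.48 (1.42 to 1.55). In both libraries all neighbours in the order were separated by more than their counting intervals.

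Each dismutase was compared with a peroxidase, the secreted with the secreted and the intracellular with the intracellular enzyme. These ratios do not depend on how the libraries are scaled against each other. For the secreted pair, the level of Sod3 was 8.16 times that of Gpx3 (7.73 to 8.61) in transfected cells and 0.676 times (0.647 to 0.706) in untransfected cells. That ratio was thus 12.1-fold (11.3 to 12.9) higher in the transfected library. For the intracellular pair, the level of Sod2 was 3.59 times that of Gpx1 (3.20 to 4.04) in transfected cells and 0.435 times (0.397 to 0.476) in untransfected cells, an 8.27-fold (7.12 to 9.59) higher ratio. Since a listed gene differs by at least 2-fold, the ratio of any higher to any lower gene differs at least 4-fold between the libraries by selection, so these folds restate the separate changes of the 2 genes. Both pairs crossed: the peroxidase was the more abundant transcript of each pair in untransfected cells, and the dismutase in transfected cells.

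Within a family the balance moved little. Sod3 made up 86.9% of the summed dismutase RPKM in transfected and 82.9% in untransfected cells. Gpx3 made up 74.5% of the summed peroxidase RPKM in transfected and 75.8% in untransfected cells. The secreted enzyme was thus the main listed transcript of its family in both libraries. The summed level of the dismutases was 1214 RPKM in transfected and 324 RPKM in untransfected cells (3.75-fold higher), and that of the peroxidases 174 RPKM in transfected and 524 RPKM in untransfected cells (3.02-fold lower).

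**Figure D2:**
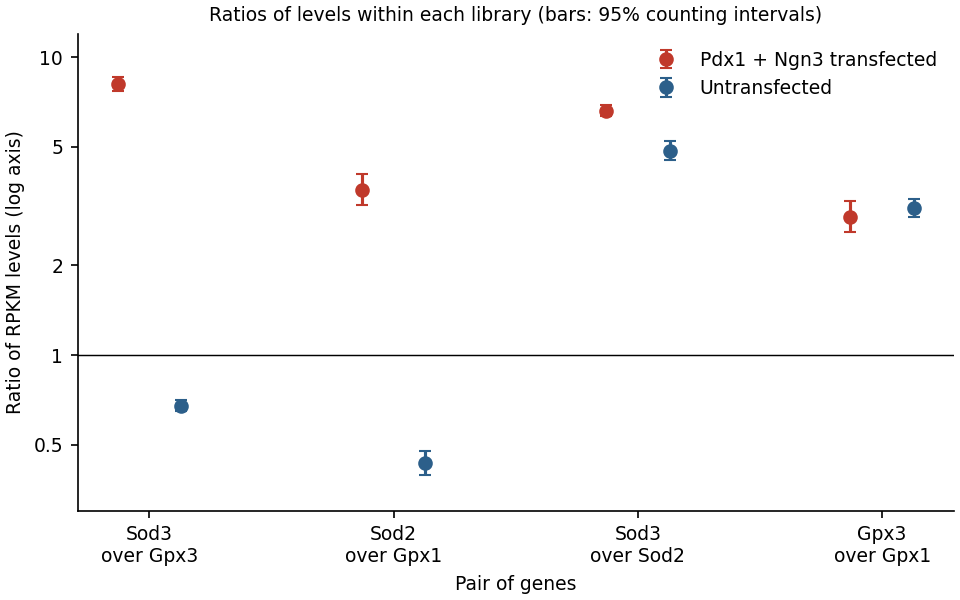
Ratios of RPKM levels between pairs of genes within the transfected (left points) and the untransfected library (right points), on a log axis with 95% counting intervals as bars. The ratios of dismutase to peroxidase lie above 1 in the transfected and below 1 in the untransfected library, while the ratio of Gpx3 to Gpx1 has overlapping intervals, at 2.92 in transfected and 3.13 in untransfected cells.

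Against all listed genes, the median log2 ratio of which was 1.24, the log2 ratios of the dismutases were near the middle and those of the peroxidases well below it. Every lower gene lies well below that median by selection, because no listed gene has an absolute log2 ratio under 1.00. The log2 ratio was 1.53 for Sod2 and 1.97 for Sod3, which is 0.29 and 0.73 above that median. It was -1.52 for Gpx1 and -1.62 for Gpx3, and relative to that median -2.76 and -2.86. Scaling by TMM or by the median of ratios, both computed on genes selected for change, shifted every log2 ratio by -0.78 and -1.20. The dismutases kept their sign under these scalings, and a negative shift could not change that of the peroxidases. Sod2 no longer reached 2-fold under either (log2 ratios of 0.75 and 0.33), and Sod3 did not under the median of ratios (0.77). The higher genes then made up 46.4% and 37.8% of all calls, against 63.5% with the implied totals.

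**Figure D3:**
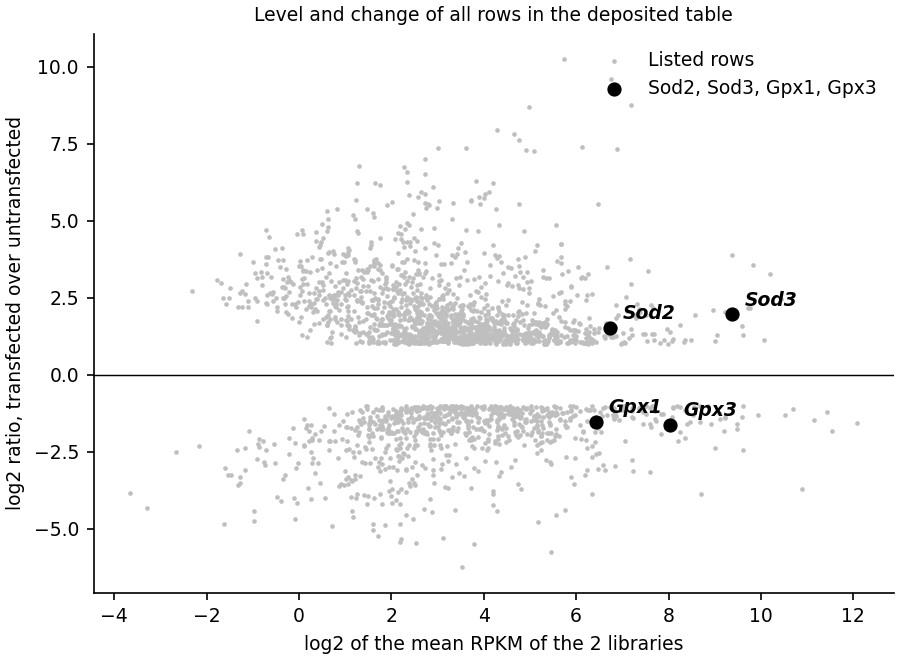
Log2 ratio of transfected over untransfected reads against the log2 of mean RPKM for all listed genes (grey, with a library at 0 reads set to 3 reads) and the 4 named genes (black). The empty band around 0 is the selection of the table, and the 4 genes lie among the more abundant rows.

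**Figure D4:**
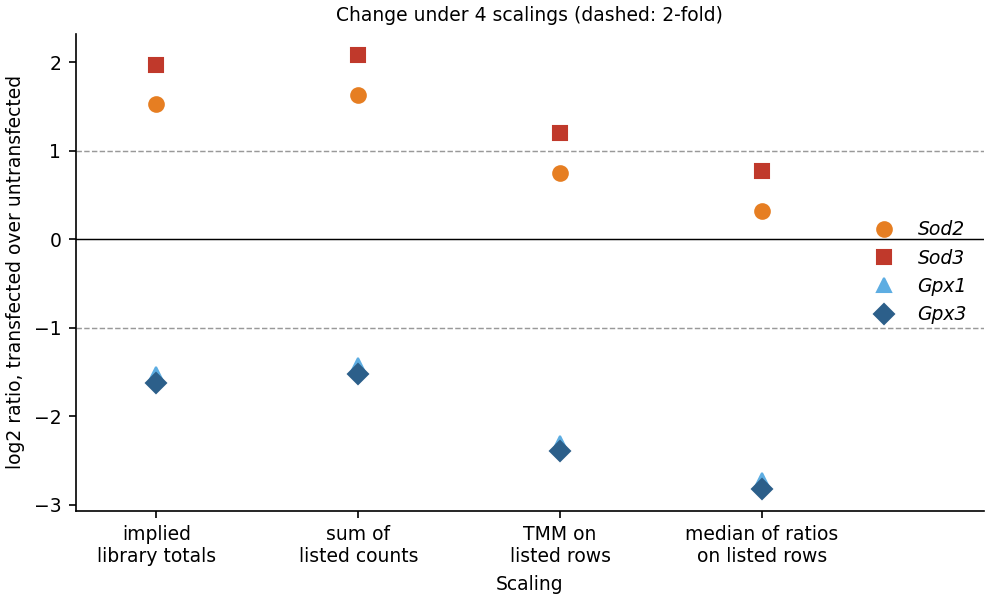
Log2 ratio of each gene under 4 ways of scaling the libraries, with dashed lines at a 2-fold change. All 4 genes keep their sign, whereas Sod2 lies at 0.33 and Sod3 at 0.77 under the median of ratios.

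Promoter sequence in RefSeq was found for 3 of the 4 genes by gene ID, and the 250 bases before the start are shown so that the dismutase that was higher can be set beside the peroxidases that were lower together. Capitals mark matches, on either strand, to the core of the antioxidant response element (TGACNNNGC), the AP-1 motif (TGANTCA), the GC box (GGGCGG), the E-box CACGTG and the NF-kB motif of 10 letters. The sequences are from the GRCr8 assembly, while the deposited counts refer to build rn4.
Sod2 (GRCr8 chr1:50050169-50050418, minus strand): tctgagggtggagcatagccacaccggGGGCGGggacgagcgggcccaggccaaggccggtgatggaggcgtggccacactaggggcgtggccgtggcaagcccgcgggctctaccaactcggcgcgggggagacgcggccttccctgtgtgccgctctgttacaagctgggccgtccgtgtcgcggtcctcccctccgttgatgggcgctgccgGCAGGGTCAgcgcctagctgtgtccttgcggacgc
Gpx1 (GRCr8 chr8:117905212-117905461, plus strand): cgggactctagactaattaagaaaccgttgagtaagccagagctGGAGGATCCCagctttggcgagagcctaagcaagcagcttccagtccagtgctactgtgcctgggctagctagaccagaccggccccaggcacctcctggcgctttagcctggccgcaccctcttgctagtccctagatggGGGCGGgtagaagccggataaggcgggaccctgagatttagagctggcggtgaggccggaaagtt
Gpx3 (GRCr8 chr10:39529085-39529334, plus strand): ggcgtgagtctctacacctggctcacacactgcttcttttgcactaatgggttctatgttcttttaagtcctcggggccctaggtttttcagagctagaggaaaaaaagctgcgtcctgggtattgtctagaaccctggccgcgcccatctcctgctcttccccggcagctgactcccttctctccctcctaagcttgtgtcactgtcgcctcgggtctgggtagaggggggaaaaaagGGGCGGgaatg

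All 3 windows held a GC box, which 30.5% of 33469 promoters of the same length hold. Sod2 held the antioxidant response element core on the opposite strand, beginning 35 bases before the start, and 10.1% of all promoters hold one. Gpx1 held an NF-kB match, found in 6.33% of promoters, 206 bases before the start. Neither AP-1 (6.34% of promoters) nor the E-box (5.59%) was found in the 3 windows. No match was shared by the 2 peroxidases alone. The bases G and C made up 71.6% of the window of Sod2, 59.2% of that of Gpx1 and 55.2% of that of Gpx3, against a mean of 52.2% over all promoters.

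Other genes of redox metabolism, taken from 13 lists, moved in both directions. Of 187 further entries in these lists 33 were listed, 19 higher and 14 lower, with a median log2 ratio of 1.15, against 1.24 for all listed genes. The share of higher genes, 57.6%, was near the background of 63.5%. TMM and the median of ratios shift every log2 ratio down, by -0.78 and -1.20, so they could not remove any of the 14 lower calls. Of the higher calls 7 held under TMM. Under the median of ratios 4 held (Msrb2, Sepp1, Vcam1 and Nox4, the last with 0 untransfected reads).

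With the implied totals, enzymes that remove peroxide by other routes were split. Of 7 such genes, catalase and the peroxiredoxins, 2 were listed, 1 higher and 1 lower, against 63.5% higher over all listed genes. Catalase was not among the listed genes. Prdx4, the peroxiredoxin of the endoplasmic reticulum, was 3.20-fold higher (2.85 to 3.60), at 152 RPKM in transfected and 47.4 RPKM in untransfected cells. Prdx5, a peroxiredoxin of mitochondria and peroxisomes, was 2.21-fold lower (1.94 to 2.52), at 49.3 RPKM in transfected and 109 RPKM in untransfected cells. Prdx4 did not reach 2-fold under TMM (log2 ratio 0.90) or under the median of ratios (0.48). Of 18 genes of the thioredoxin and glutaredoxin system, 2 were higher and 1 lower. Srxn1, sulfiredoxin, which restores overoxidised peroxiredoxins, was 3.36-fold lower, at 21.8 RPKM in transfected and 73.3 RPKM in untransfected cells. Glrx1, a glutaredoxin, was 3.22-fold higher, and Msrb2, a mitochondrial methionine sulfoxide reductase, was 4.71-fold higher on 85 transfected and 19 untransfected reads. Glrx1 lost its call under TMM (0.91) and under the median of ratios (0.48).

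Glutathione is the substrate of both peroxidases. Of 15 genes of its synthesis and recycling, 1 was higher and 2 were lower. Chac1, which degrades glutathione, was 5.18-fold lower and Ggt5, of the gamma-glutamyltransferase family, 3.13-fold lower, while its relative Ggt7 was 2.44-fold higher. Of 23 glutathione transferases, Mgst1, the microsomal enzyme, was 2.12-fold higher and Gsta2 8.75-fold lower. The count of Gsta2 is uncertain because it has near-identical relatives. Neither Ggt7 nor Mgst1 kept its call under TMM or under the median of ratios. The folate enzymes Aldh1l1 and Aldh1l2 yield NADPH for glutathione reduction. Aldh1l1 was 4.42-fold higher on 42 transfected and 10 untransfected reads (interval 2.18 to 9.88), and Aldh1l2 was 2.33-fold higher. They were the only 2 listed of 12 genes of NADPH supply, beside 63.5% higher over all listed genes. Under TMM Aldh1l1 alone kept its call. Neither did under the median of ratios, with log2 ratios of 0.94 for Aldh1l1 and 0.02 for Aldh1l2.

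With the implied totals, targets and partners of the transcription factor NRF2 were evenly divided, 2 higher and 2 lower of 18. Over all listed genes 63.5% were higher. Hmox1, heme oxygenase 1, was 2.45-fold lower, at 36.7 RPKM in transfected and 90.1 RPKM in untransfected cells, and Srxn1 belongs to this list too. Ephx1, an epoxide hydrolase, was 3.22-fold higher and Maff, a small MAF protein, lay just inside the limit, with 242 transfected and 127 untransfected reads. Neither Ephx1 nor Maff kept its call under TMM or the median of ratios, so 0 genes of this list were then called higher and 2 lower. The log2 ratio of Ephx1 was 0.91 under TMM and 0.48 under the median of ratios. Under the median of ratios the log2 ratio turned below 0 for Maff (-0.20), Mgst1 (-0.12) and Cp (-0.05).

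Genes whose products make superoxide or hydrogen peroxide were lower in 6 of 8 listed cases from 23, against 36.5% lower over all listed genes, with a median log2 ratio of -2.12. Their summed level went the other way, at 293 RPKM in transfected and 187 RPKM in untransfected cells. Lox, lysyl oxidase, which releases hydrogen peroxide as it crosslinks collagen, was the most abundant of them, with 256 RPKM in transfected and 66.5 RPKM in untransfected cells (3.84-fold higher). Its relatives Loxl3 and Loxl4 were 2.74-fold and 6.67-fold lower. Nox1, an NADPH oxidase, was 3.64-fold lower on 52 transfected and 199 untransfected reads. The remaining members were named after their values were seen. Duox1, a dual oxidase, was 10.4-fold lower (37 transfected and 403 untransfected reads), its paralog Duox2 5.23-fold lower (6 transfected and 33 untransfected reads) and Maob, monoamine oxidase B, 16.2-fold lower (2 transfected and 34 untransfected reads). Nox4 had 13 reads in transfected and 0 in untransfected cells, 4.56-fold higher when the 0 was set to a floor of 3 reads (exact lower limit of the ratio 3.21). Ucp2, a carrier of the inner mitochondrial membrane and the 1 gene listed of 10 mitochondrial partners, was 2.30-fold lower.

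Both peroxidases contain selenocysteine, and 3 genes of selenium handling were listed of 23 entries. Sepp1, selenoprotein P, which carries selenium outside the cell, was 6.32-fold higher (5.41 to 7.42), at 54.5 RPKM in transfected and 8.63 RPKM in untransfected cells. Scly, the lyase that frees selenium from selenocysteine, was 2.71-fold higher. Lrp8, known in the mouse as a receptor for selenoprotein P, was 7.94-fold lower, with 28 transfected and 234 untransfected reads. No other gene of that list is among the listed genes.

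Of 22 genes of copper, zinc and iron handling, 3 were listed and all 3 were higher, against 63.5% higher over all listed genes. Under TMM the call held for Hfe alone and under the median of ratios for none, where the log2 ratio was 0.62 for Hfe, 0.0021 for Slc39a14 and below 0 for Cp, as given above. Slc39a14, a transporter of zinc, iron and manganese, was 2.30-fold higher, Cp, ceruloplasmin, 2.22-fold higher and Hfe, a regulator of iron uptake, 3.54-fold higher on 37 transfected and 11 untransfected reads. From a list of 14 NF-kB response genes 3 were listed, all higher, beside the same background of 63.5%. They were Nfkb1, a subunit of the factor (2.54-fold), the row LOC100360982, which RefSeq names Relb, another subunit (2.39-fold), and the adhesion molecule Vcam1 (9.62-fold). Of these, Vcam1 alone kept its call under TMM and under the median of ratios, where the log2 ratio was 0.57 and 0.14 for Nfkb1 and 0.48 and 0.06 for LOC100360982.

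**Figure D5:**
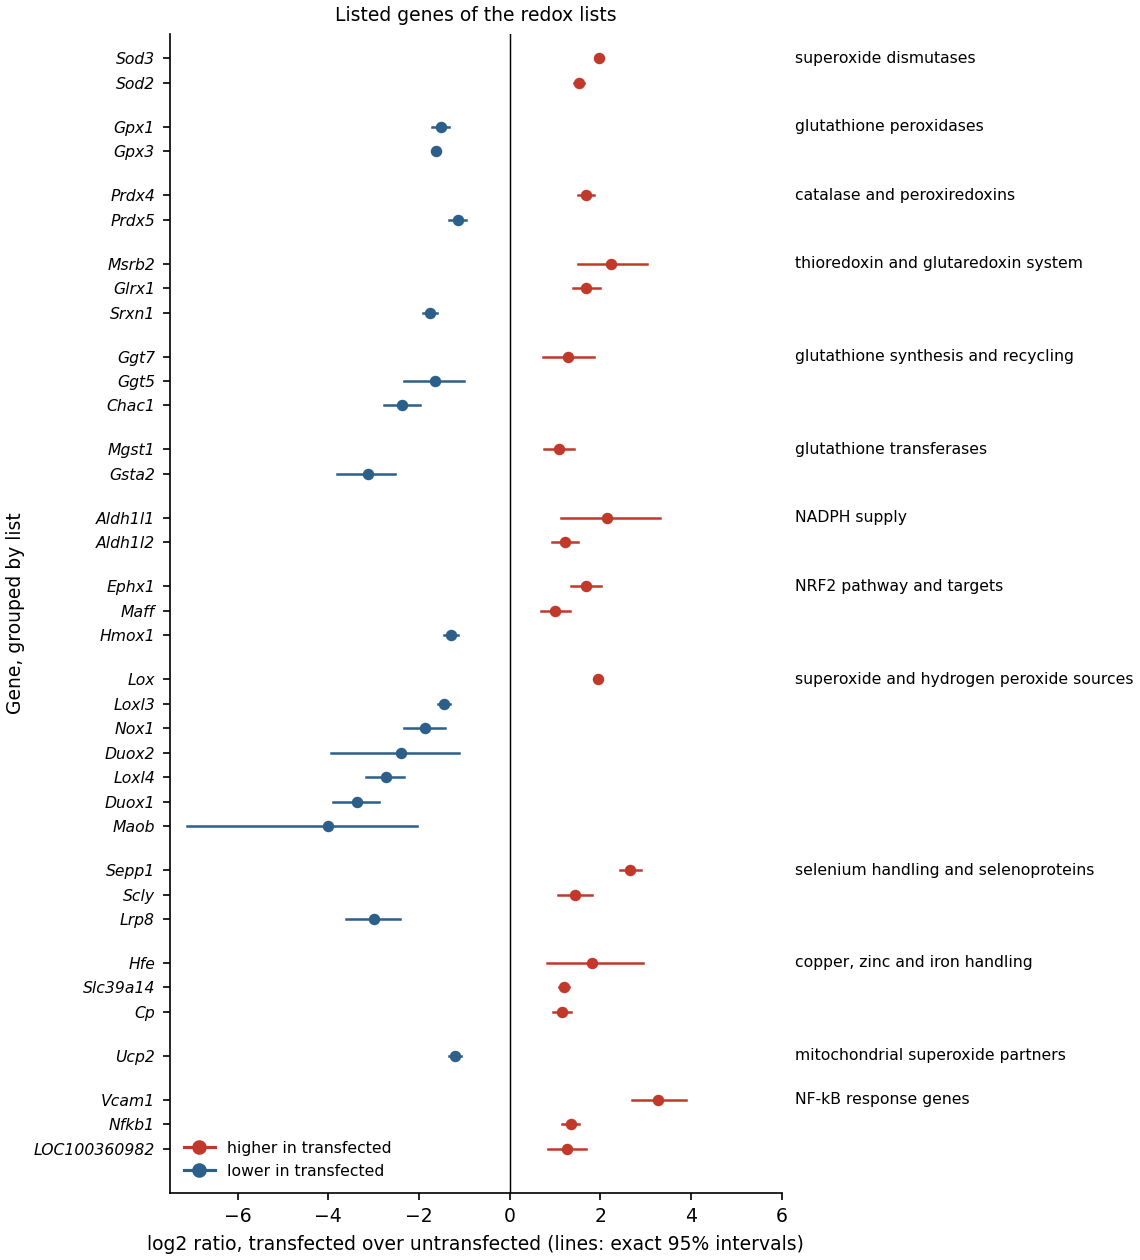
Log2 ratio of transfected over untransfected reads with exact 95% intervals for the listed genes of the 13 redox lists, each gene drawn once. Nox4, with 0 untransfected reads, is not drawn, and the genes that generate superoxide or peroxide lie mostly to the left of 0, Lox excepted.

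The deposited gene annotation groups the genes in another way. Over all listed genes 63.5% were higher, and the counts of each term include the members. Antioxidant activity was annotated to 9 genes, 6 higher (66.7%) and 3 lower, with both dismutases among the higher ones. Superoxide metabolism was annotated to 5 genes: the dismutases and Nox4 were higher (60%), and Duox1 and Nox1 lower. Hydrogen peroxide metabolism was annotated to 6 genes, 2 higher (33.3%) and 4 lower, the lower ones being Gpx1, Gpx3, Duox1 and Duox2. Response to metal ion was the 1 term held by all 4 members, and its 36 genes were 20 higher (55.6%) and 16 lower. Other terms were shared within a family. Catalytic activity had 22 genes, 20 higher (90.9%) and 2 lower. Transition metal ion binding had 145 genes, 86 higher (59.3%) and 59 lower. Sulfur metabolism had 8 genes, 5 higher (62.5%) and 3 lower. Peroxidase activity had 3 genes, 1 higher (33.3%) and 2 lower, and response to hydroperoxide had Gpx1 and Gpx3 alone.

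The genes nearest to each member by log2(RPKM + 1) over the 2 libraries were named as a description of level. For Sod3 these were Timp1, an inhibitor of matrix proteases (960 RPKM transfected, 235 RPKM untransfected), and Postn, periostin (1415 RPKM transfected, 313 RPKM untransfected). For Sod2 they were Msln, mesothelin (152 RPKM transfected, 52.6 RPKM untransfected), and the row LOC100360920, annotated as a KDEL receptor (170 RPKM transfected, 58.1 RPKM untransfected). For Gpx3 they were Pdlim5, a PDZ and LIM domain protein (115 RPKM transfected, 380 RPKM untransfected), and Fermt2, a kindlin of integrin adhesions (151 RPKM transfected, 389 RPKM untransfected). For Gpx1 they were Myh11, smooth muscle myosin (41.7 RPKM transfected, 137 RPKM untransfected), and Ece1, endothelin converting enzyme (39.7 RPKM transfected, 111 RPKM untransfected).

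Markers of cell types changed between the libraries as well. Of 8 markers of smooth muscle cells and pericytes, 7 were listed, 6 lower and 1 higher, against 36.5% lower over all listed genes. Their summed level was 3588 RPKM in transfected and 12190 RPKM in untransfected cells. The exception, named after its values were seen, was Rgs5, with 39 reads in transfected and 0 in untransfected cells. Stromal markers were 4 higher and 2 lower, near the background of 63.5% higher over all listed genes. They summed to 1807 RPKM in transfected and 2383 RPKM in untransfected cells. The 2 lower ones, Thy1 (3.41-fold) and Itgb1 (2.04-fold), were the most abundant of them in untransfected cells, at 1101 and 1057 RPKM. Of 14 blood cell markers only Cd74 (5 transfected and 96 untransfected reads) and Cd68 (26 transfected and 5 untransfected reads) were listed, with a sum of 3.34 RPKM in transfected and 9.22 RPKM in untransfected cells. Of 8 endothelial markers Egfl7 alone was listed (22 transfected and 78 untransfected reads), and none of 13 pancreatic endocrine markers was. The part of these markers in the levels of the dismutases and peroxidases was not tested.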

How the data were processed

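Messenger RNA of 2 libraries was analysed, 1 per group. The read counts were deposited as whole numbers per cDNA cluster, and build rn4 is named in the submitters' processing notes; the aligner and counter are unstated in the labels. The authors' deposited RPKM are reads per kilobase of the length column and of an implied library total. The deposited log2 ratio is that of RPKM, and the authors' p-values and false discovery rates come from a test that the file does not name and support no result. The smallest absolute log2 ratio listed is 1.00 and the largest false discovery rate 0.000996.

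Library totals were implied by counts, length and RPKM; 1 row departed from the untransfected total. Ratios carry Clopper-Pearson 95% intervals, levels exact Poisson intervals, and ratios of ratios intervals from the counts on the log scale. Without molecular identifiers, PCR reads are not independent, so these intervals and the floor of 3 reads for a count of 0 cover counting error only. The scripts were tested on simulated data. Rows naming no rat gene (28.4%) stayed in the counts. Older and current symbols of a gene counted as 1 entry of a list where RefSeq linked them. A name left unlinked, such as Cd29 for Itgb1, counted as a further entry, so list sizes can slightly exceed the number of genes. Named were the 4 members, up to 4 genes per list with the highest mean RPKM, and the 2 nearest genes per member. Members and lists were chosen with earlier results of these data known. Alternatives were other scalings (TMM from edgeR 4.0.16), pseudocounts of 1 and 0.1, a ratio of 3, an assumed variation, a minimum of 30 reads, named rows alone, and the length in the description. Python 3.11.15, scipy 1.17.1 and R 4.3.3 were used.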

Additional observations from a re-analysis of the deposited data

How the results depend on the processing

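All 4 genes kept their direction under the 3 other scalings and the pseudocounts of 1 and 0.1; the minimum of 30 reads and the limit to named rows were run on the count over all genes alone. The call of Sod2 was lost under TMM (log2 ratio 0.75), the median of ratios (0.33), a required ratio of 3 (1.53) and an assumed biological coefficient of variation of 0.4 (1.53, with an interval of the ratio from 0.949 to 8.76). That of Sod3 was lost under the median of ratios (0.77), and that of Gpx1 under the ratio of 3 (-1.52) and the assumed variation (-1.52, interval of the ratio from 0.114 to 1.06). Gpx3 kept its call in each alternative that gave it a value. Of the members, 1 stayed higher under TMM, 0 under the median of ratios, and 1 higher and 1 lower under both the ratio of 3 and the assumed variation. Over all listed genes the higher calls were 734 under TMM, 517 under the median of ratios, 856 with the ratio of 3 and 780 with the assumed variation, and the lower calls 445 and 400 under the last pair. The log2 ratio of the summed dismutase level was 2.01 with the sum of listed counts, 1.13 under TMM and 0.71 under the median of ratios, against 1.91. That of the summed peroxidase level was -1.49, -2.37 and -2.80, against -1.59. Stricter settings lower these counts by construction, since no listed gene lies under 2-fold, and negative shifts lower those of higher genes alone. TMM and the median of ratios therefore could not remove the calls of Gpx1 and Gpx3. No paired analysis was possible because each group has 1 library, and no library could be left out. Depth limits the members little: the fewest reads were 314, for Gpx1 in transfected cells.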

Other observations

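The authors' deposited table gives Sod2 a p-value of 3.81e-13 on 2467 transfected and 900 untransfected reads, and Gpx1 a p-value of 1.96e-67 on 314 transfected and 947 untransfected reads. In the authors' deposited table the smallest p-value above 0 was 2.00e-15 among the 1476 higher genes and 1.41e-291 among the 849 lower genes. It lists 290 of the higher and 67 of the lower genes at a p-value of exactly 0.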
